A study of Mus musculus with 12 samples.

Results

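The genes described here are 34 enzymes and regulators of cholesterol and fatty acid synthesis, taken by symbol from a list of known pathway members. All 34 were found among the 56748 genes of the count table and all 34 were among the 16465 genes that passed the filter on low counts. The list held 19 enzymes of the sterol branch, 10 enzymes of the fatty acid branch, and 5 genes that regulate the SREBP pathway or carry sterol within the cell (Srebf1, Srebf2, Scap, Insig1 and Stard4). RNA was sequenced from 12 libraries of C3H10T1/2 cells (spelled CH310T1/2 in the sample labels), an established mouse line of mesenchymal progenitors given there as genotype WT. By the study's methods, cells were first starved overnight in 0.5% FBS. All cells were held for 1 h in suspension (in 0.5% FBS by the labels, without serum by the study's methods). They were then cultured for 18 h on hydrogels of 12 kPa stiffness that carried type I collagen, applied at 0.05 mg/ml. The medium on the hydrogels was also low in serum (0.5% FBS) in all groups. Collagen alone was the control (col1, 4 libraries). In col1-ACLP (4 libraries) the collagen was polymerized with 30 nM recombinant ACLP, a secreted matrix protein, and col1-ACLP+SB (4 libraries) was the same matrix with SB431542, an inhibitor of the TGFβR1 (ALK5) kinase. No group received SB431542 on collagen without ACLP, so an action of the inhibitor on its own cannot be told apart from an action on the response to ACLP. All libraries came from 1 line. The study calls them biological replicates but the sources used here do not say whether they were separate cultures, so p-values measure the spread between these libraries.

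Cholesterol is built from acetyl-CoA through mevalonate, isoprenoid diphosphates, squalene and lanosterol, and fatty acids are built from cytosolic acetyl-CoA through malonyl-CoA and palmitate. Both branches are driven by the SREBP transcription factors, which SCAP escorts out of the endoplasmic reticulum when membrane sterol is low and which INSIG proteins hold back when sterol is plentiful. SREBP-2, the product of Srebf2, acts mainly on sterol genes, and SREBP-1, the product of Srebf1, acts more on fatty acid genes. In mesenchymal cells these pathways supply membrane lipid during growth and spreading.

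Each library held between 29246154 and 52201922 counts in total. The lowest count of any member in any library was 80, for Fdps. Over all genes, col1 replicate 2 stood apart on the leading principal component (-86.7, against -11.1 to 20.6 in the other 11 libraries), so member counts are also given without it. The defining mesenchymal markers were present, with the 8 markers summing to between 49580 and 76080 CPM (counts scaled to a common library size by the TMM method), while 5 hepatocyte markers summed to at most 0.232 CPM and of the 7 adipocyte markers Adipoq, Plin1, Cidec and Lep had group means of at most 0.0671 CPM, Fabp4 of 0.436 to 1.73 CPM, Cebpa of 11.4 to 14.1 CPM and Pparg of 16.2 to 27.0 CPM. The mesenchymal markers differed widely in level. Thy1 (group means of 22 to 22.99 CPM) and S100a4 (10.71 to 15.1 CPM) were the lowest of the 8, at levels like those of Pparg and Cebpa. In bulk RNA, fewer cells of a type and less RNA per cell cannot be told apart.

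Promoter sequence was examined first, as the letters that SREBP and its usual partners read lie close to the start of these genes. RefSeq windows of 300 bases (250 before and 50 after each start, from a table of GRCm38.p6) were held for 27 of the 34 members, and all 34 windows of those members matched GRCm39 exactly once. There was no window for Fads1, Sqle, Fdps, Scd1, Stard4, Scd2 or Fdft1. The sterol regulatory element was searched as TCACNCCAC on both strands and lay in the window of 1 of 27 members, Hmgcs1, against 1.44% of protein-coding genes and 1.24% of all 32851 windows. The CCAAT box, bound by NF-Y, was searched as CCAAT on both strands. It lay in 22 of 27 members (81.5%), against 42.3% of protein-coding genes and 37.4% of all windows, and in 67.6% of the members' own windows. By branch it was held by 15 of 16 sterol enzymes, 3 of 4 regulators and 4 of 7 fatty acid enzymes. The Sp1 motif GGGCGG lay in 22 of 27 members (50.8% of coding genes, 35.7% of all windows) and the E-box CACGTG, which is the same on both strands, in 5 of 27 (9.14% and 7.15%). None of these motifs contains another. Sequences are printed for Hmgcs1, the member with the sterol regulatory element, for Mvk, whose window held the most CCAAT boxes (5), and for Insig1, the member that fell on ACLP. The latter pair was chosen after the values were seen. Each runs 5′ to 3′ on the gene's strand up to the RefSeq start or the start of the gene in the count table, whichever came first, with capitals marking the sterol regulatory element and the CCAAT box on either strand (GRCm39). The stretches are chr13:120151637-120151886 (plus strand) for Hmgcs1, chr5:114582080-114582329 (plus strand) for Mvk and chr5:28276160-28276360 (plus strand) for Insig1.
Hmgcs1: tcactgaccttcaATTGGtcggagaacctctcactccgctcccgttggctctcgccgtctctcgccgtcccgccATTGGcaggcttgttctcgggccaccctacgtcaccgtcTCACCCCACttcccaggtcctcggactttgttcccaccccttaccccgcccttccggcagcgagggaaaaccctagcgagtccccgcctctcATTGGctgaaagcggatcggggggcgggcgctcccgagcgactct
Mvk: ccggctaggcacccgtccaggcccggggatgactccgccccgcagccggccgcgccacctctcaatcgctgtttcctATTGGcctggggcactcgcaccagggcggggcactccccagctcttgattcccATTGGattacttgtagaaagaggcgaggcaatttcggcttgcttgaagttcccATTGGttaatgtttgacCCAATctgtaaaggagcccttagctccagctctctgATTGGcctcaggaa
Insig1: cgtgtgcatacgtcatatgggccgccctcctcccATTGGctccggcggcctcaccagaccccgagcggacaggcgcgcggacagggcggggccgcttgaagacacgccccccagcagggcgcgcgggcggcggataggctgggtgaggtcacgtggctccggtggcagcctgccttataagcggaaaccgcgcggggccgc
In Hmgcs1 the sterol regulatory element began 137 bases before the RefSeq start, with a CCAAT box on each side of it. The 5 CCAAT boxes of Mvk began at positions -173 to -14 relative to the start. Insig1 had 1 CCAAT box, 216 bases before the RefSeq start. These are matches of letters only, and binding was not measured.

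Levels were compared between genes as FPKM, that is per length of the gene model in the table. On col1, fatty acid enzymes had a median of 27.4 FPKM, from 6.11 for Acsl3 to 159 for Scd2, a stearoyl-CoA desaturase and the highest of all members. Sterol enzymes had a lower median of 8.89 FPKM, from 0.672 for Fdps to 16.8 for Sqle. Between the transcription factor genes, Srebf2 stood at 46.2 ± 3.16 FPKM and Srebf1 at 8.43 ± 0.307 FPKM on col1 (SD, n = 4). The members took 0.327 to 0.357% of all counts on col1, 0.467 to 0.537% in the col1-ACLP libraries and 0.414 to 0.439% with SB431542, so the ranges of the 3 groups did not overlap.

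**Figure D1:**
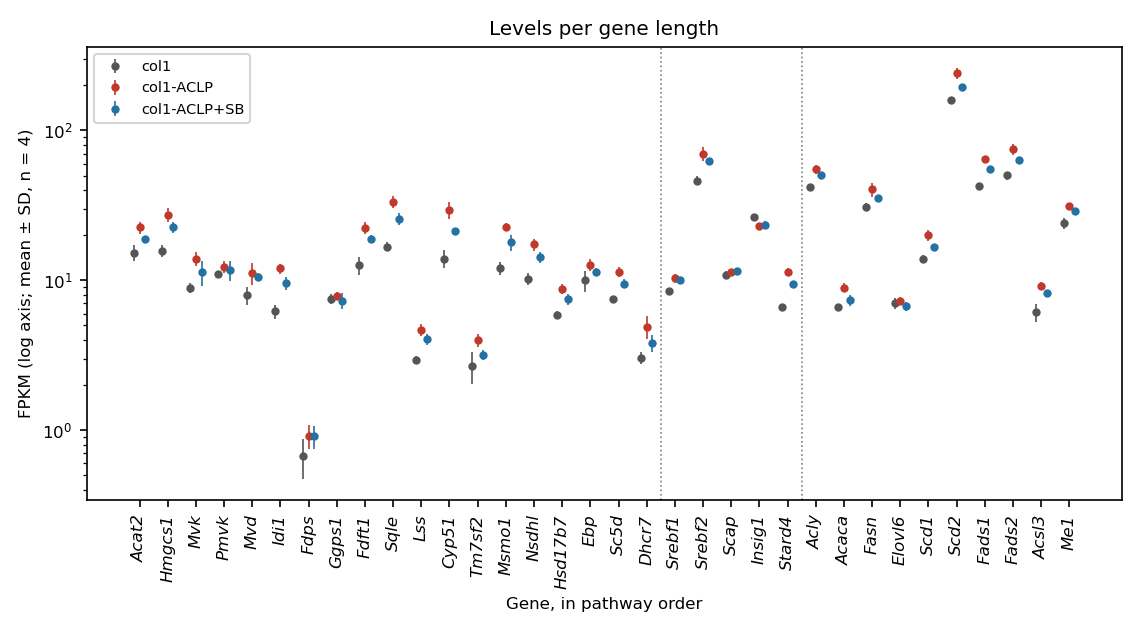
Level of each of the 34 members in FPKM on a log axis, with genes in pathway order along the x axis (dotted lines part sterol enzymes, regulators and fatty acid enzymes) and points and bars giving the mean and SD of 4 libraries per group. Scd2 is the highest member and Fdps the lowest in every group, and the col1-ACLP point lies above the col1 point for every member but Insig1.

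On ACLP-bearing collagen, most of the pathway rose. Against col1, 28 of 34 members were higher on col1-ACLP at an adjusted p under 0.05 (the quasi-likelihood test of edgeR, adjusted by the Benjamini-Hochberg method over the 16465 genes tested and used for every adjusted p given here), where 9.52% of all genes tested were higher. Insig1 alone was lower (1 of 34, against 8.41% of all genes), and Pmvk, Fdps, Ggps1, Scap and Elovl6 did not pass. Of the 28, 18 were also beyond 0.58 on the log2 scale, the size the study's methods ask for (2.61% of all genes), and no lower member was (2.36%). In 27 members all 4 col1-ACLP libraries lay above all 4 col1 libraries, against 10.9% of all genes, and in 1 member all lay below (10.3%). The median log2 fold change of the members was 0.58, and that of all genes tested was -0.0099. Without col1 replicate 2 the counts were again 28 higher and 1 lower.

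The early part of the sterol branch, which makes mevalonate and turns it into isoprenoid units, was higher for 5 of its 6 members, with Pmvk the exception. Hmgcs1, the cytosolic synthase that makes HMG-CoA (chr13:120151915-120169796), had 79.4, 68.6, 76.9 and 64.5 CPM in the col1 libraries, 130, 116, 114 and 142 CPM on col1-ACLP, and 111, 111, 92.2 and 102 CPM on col1-ACLP+SB. All 8 libraries with ACLP were above all 4 col1 libraries, and those with SB431542 lay below those without. The log2 fold change of Hmgcs1 on col1-ACLP was 0.80 (standard error 0.0770, adjusted p = 1.81e-08), a rise of 73.5%.

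Idi1, which interconverts the isoprenoid building blocks, had 20.9, 25.1, 20.5 and 20.4 CPM in the col1 libraries, 38.9, 46.6, 40.8 and 41.7 CPM on col1-ACLP, and 35.7, 32.5, 29.3 and 37.1 CPM on col1-ACLP+SB. The 3 groups did not overlap, with col1 lowest and col1-ACLP highest, and replicate 2 was the highest of the col1 libraries. Its log2 fold change on col1-ACLP was 0.95 (standard error 0.0908, adjusted p = 1.34e-08). Acat2, the thiolase that joins acetyl-CoA units, rose by 0.56 (adjusted p = 1.16e-05), Mvk, the mevalonate kinase, by 0.65 (8.27e-05), and Mvd, the decarboxylase of the pathway, by 0.49 (0.00397). The groups overlapped for Mvd, as col1 replicate 3 (17.2 CPM) lay above col1-ACLP replicate 3 (16.2 CPM). Pmvk, the kinase between Mvk and Mvd, ranged from 18.3 to 19.97 CPM in the col1 libraries and from 18.6 to 23.2 CPM in the col1-ACLP libraries. Its log2 fold change was 0.16 with a 95% confidence interval from -0.06 to 0.37 (adjusted p = 0.359).

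The synthases that make the longer isoprenoid diphosphates did not pass the test. Fdps, which makes farnesyl diphosphate, the branch point towards sterols and prenylated proteins, had 4.05, 2.73, 2.43 and 2.12 CPM in the col1 libraries and 3.27, 3.79, 4.88 and 3.51 CPM in the col1-ACLP libraries. Its libraries overlapped, and the estimate of 0.45 had the largest standard error of all members (0.235, adjusted p = 0.220). The gene shares 7512 bases on the same strand with Gm43738, and how the counting treated such reads is not given in the sources used here, so its level is uncertain. Ggps1, which makes geranylgeranyl diphosphate, ranged from 31.5 to 37.5 CPM in col1 libraries and from 35.2 to 39.8 CPM in col1-ACLP libraries, with a log2 fold change of 0.07 (95% confidence interval -0.11 to 0.25, adjusted p = 0.673).

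Every one of the 11 enzymes from squalene synthesis to cholesterol was higher on col1-ACLP. Fdft1, the squalene synthase, had 62.2, 50.9, 47.1 and 47.4 CPM in the col1 libraries, 89.2, 91.3, 84.8 and 104 CPM on col1-ACLP, and 80.8, 80.0, 80.4 and 70.2 CPM on col1-ACLP+SB. All libraries with ACLP lay above those on col1, and the log2 fold change on col1-ACLP was 0.83 (standard error 0.0808, adjusted p = 1.84e-08). Its gene overlaps Ctsb on the opposite strand by 774 bases, a gene with a lower level on col1-ACLP (log2 fold change -0.24), so reads from the 2 genes may not be fully parted.

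Sqle, the squalene epoxidase and a rate-limiting enzyme of the pathway, had 95.6, 101, 90.8 and 85.6 CPM in the col1 libraries, 184, 181, 168 and 207 CPM on col1-ACLP, and 157, 149, 139 and 128 CPM on col1-ACLP+SB. No library of one group reached into the range of another. The log2 fold change on col1-ACLP was 0.99 (standard error 0.0680, adjusted p = 3.50e-11), or 98.7% higher. Lss, which closes the sterol rings to give lanosterol, rose from 29.4 to 33.3 CPM on col1 to between 46.7 and 56.7 CPM on col1-ACLP (log2 fold change 0.66, adjusted p = 5.13e-07).

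Cyp51, the lanosterol demethylase, showed the largest change of the members. It had 60.9, 73.6, 58.1 and 53.7 CPM in the col1 libraries, 127, 120, 119 and 154 CPM on col1-ACLP, and 97.3, 94.5, 92.1 and 90.9 CPM on col1-ACLP+SB. The 3 groups stood apart, with the SB431542 libraries close together and between the other groups. The log2 fold change on col1-ACLP was 1.07 (standard error 0.0824, adjusted p = 2.47e-10), that is 2.11-fold.

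Msmo1, Nsdhl and Hsd17b7, which take part in removing the methyl groups at carbon C-4 of the sterol, were all higher. Msmo1, the methylsterol monooxygenase, had 78.3, 78.5, 74.7 and 63.1 CPM in the col1 libraries, 135, 138, 132 and 153 CPM on col1-ACLP, and 129, 99.0, 108 and 104 CPM on col1-ACLP+SB. Its groups did not overlap, although replicate 1 with SB431542 came near the lowest col1-ACLP library. The log2 fold changes on col1-ACLP were 0.92 for Msmo1 (adjusted p = 1.03e-09), 0.76 for Nsdhl (1.79e-07) and 0.58 for Hsd17b7 (4.63e-06).

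The remaining steps to cholesterol also rose. Dhcr7, the reductase of the last step, rose by 0.69 (adjusted p = 5.70e-05), Sc5d, a sterol desaturase, by 0.61 (6.23e-07), and Tm7sf2, a sterol reductase, by 0.58 (0.00407). Ebp, a sterol isomerase, had the smallest rise of the called sterol enzymes at 0.35 (adjusted p = 0.0162), with col1 libraries from 18.6 to 26.5 CPM and col1-ACLP libraries from 26.6 to 32.1 CPM. Tm7sf2 shares 532 bases on the same strand with Vps51, which was lower on col1-ACLP (log2 fold change -0.21, adjusted p = 0.0422). Leaving out col1 replicate 1, col1-ACLP replicate 2 or col1-ACLP replicate 3 ended the call of Ebp, with estimates from 0.26 to 0.32.

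**Figure D2:**
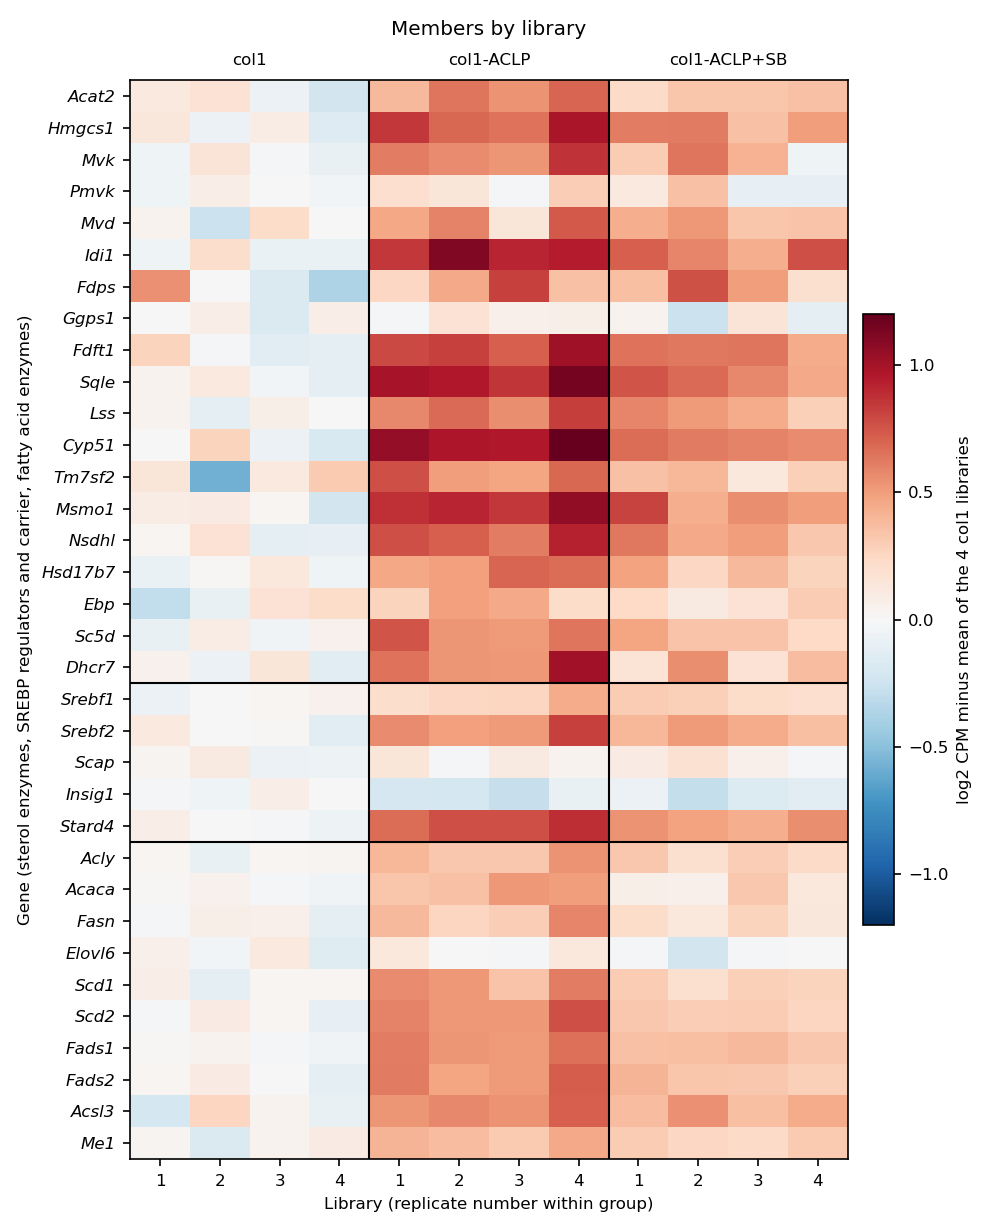
Heat map of log2 CPM minus the mean of the 4 col1 libraries, with the 34 members as rows (black lines part sterol enzymes, regulators with the carrier, and fatty acid enzymes) and the 12 libraries as columns. The col1-ACLP columns are darkest red across Hmgcs1, Idi1, Fdft1, Sqle, Cyp51 and Msmo1, col1-ACLP replicate 4 is the highest of its group for 25 of 34 members, and Insig1 is blue in all 8 columns with ACLP.

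Among the regulators, the genes of both SREBP factors rose, Insig1 fell and Scap did not pass the test. Srebf2 had 360, 329, 334 and 304 CPM in the col1 libraries, 491, 464, 471 and 586 CPM on col1-ACLP, and 437, 472, 450 and 425 CPM on col1-ACLP+SB. All libraries with ACLP lay above col1, and the col1-ACLP and col1-ACLP+SB libraries overlapped. Its log2 fold change on col1-ACLP was 0.60 (standard error 0.0620, adjusted p = 5.21e-08), or 51.7%.

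Srebf1 rose less, from 45.1 to 49.2 CPM on col1 to between 55.0 and 64.5 CPM on col1-ACLP (log2 fold change 0.29, adjusted p = 0.00165). The counts are per gene, so the Srebf1 isoforms, which start at different promoters, were not parted. Scap ranged from 76.9 to 86.9 CPM in col1 libraries and from 79.6 to 89.2 CPM in col1-ACLP libraries, with a log2 fold change of 0.07 (95% confidence interval -0.06 to 0.19, adjusted p = 0.531).

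Insig1, whose product retains the SCAP-SREBP complex and whose gene is itself a classical SREBP target, fell. It had 79.6, 78.2, 85.8 and 81.0 CPM in the col1 libraries, 70.7, 70.0, 66.8 and 76.5 CPM on col1-ACLP, and 77.2, 66.5, 72.2 and 73.9 CPM on col1-ACLP+SB. All 8 libraries with ACLP were below all 4 on col1, by a small margin. The log2 fold change on col1-ACLP was -0.19 (standard error 0.0608, adjusted p = 0.0270). This call was lost when col1 replicate 3 or 4, or col1-ACLP replicate 1, 2 or 3 was left out, with estimates from -0.19 to -0.16.

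Stard4, a soluble protein that carries cholesterol between membranes, had 38.9, 36.6, 36.6 and 35.5 CPM in the col1 libraries, 58.6, 63.2, 63.1 and 68.3 CPM on col1-ACLP, and 53.6, 51.6, 50.04 and 54.4 CPM on col1-ACLP+SB. The groups stood apart in the order col1, col1-ACLP+SB, col1-ACLP. The log2 fold change on col1-ACLP was 0.78 (standard error 0.0652, adjusted p = 1.32e-09), within the range of the sterol enzymes.

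In the fatty acid branch, 9 of 10 enzymes were higher on col1-ACLP and 4 of 10 were beyond 0.58. Those 4 lay close to 0.58. Across the alternatives other than leaving a library out, their lowest estimates were 0.53 (Fads1), 0.533 (Acsl3), 0.534 (Fads2) and 0.552 (Scd2). The steps from citrate to palmitate moved by similar amounts. Acly, which splits citrate into acetyl-CoA, rose by 0.40 (adjusted p = 2.63e-06), Acaca, the acetyl-CoA carboxylase, by 0.43 (7.07e-06), Fasn, the fatty acid synthase, by 0.39 (2.87e-05), and Me1, the cytosolic malic enzyme that supplies NADPH, by 0.38 (1.74e-05). Fasn had 335, 355, 352 and 311 CPM in the col1 libraries, 443, 403, 415 and 507 CPM on col1-ACLP, and 393, 370, 406 and 370 CPM on col1-ACLP+SB. All libraries with ACLP were above col1, and the ranges with and without SB431542 overlapped only between 403 and 406 CPM.

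Scd2, a stearoyl-CoA desaturase, had the highest estimate of this branch. It had 853, 929, 879 and 809 CPM in the col1 libraries, 1313, 1240, 1239 and 1483 CPM on col1-ACLP, and 1088, 1062, 1072 and 1035 CPM on col1-ACLP+SB. The 3 groups did not overlap. Its log2 fold change on col1-ACLP was 0.60 (standard error 0.0508, adjusted p = 1.41e-09), and that of its neighbour and paralog Scd1 was 0.52 (adjusted p = 6.81e-07). How reads shared by paralogs were assigned is not given in the sources used here.

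Fads1 and Fads2, the desaturases of polyunsaturated fatty acids, lie close together on chromosome 19. Fads1 had 208, 212, 204 and 200 CPM in the col1 libraries, 315, 297, 294 and 326 CPM on col1-ACLP, and 263, 265, 270 and 258 CPM on col1-ACLP+SB. Its libraries were tightly grouped, with no overlap between groups. The log2 fold changes on col1-ACLP were 0.58 for Fads1 (standard error 0.0455, adjusted p = 3.84e-10) and 0.59 for Fads2 (standard error 0.0573, adjusted p = 2.16e-08).

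Acsl3, an acyl-CoA synthetase of the endoplasmic reticulum and lipid droplets, rose by 0.58 (adjusted p = 2.14e-05). It shares 13475 bases on the same strand with Utp14b, itself higher on col1-ACLP (log2 fold change 0.71, adjusted p = 0.0290) at a mean of only 5.71 CPM. Elovl6, which lengthens palmitate, was the exception of the branch. It ranged from 40.6 to 48.7 CPM in col1 libraries and from 44.5 to 49.1 CPM in col1-ACLP libraries, with a log2 fold change of 0.06 (95% confidence interval -0.10 to 0.21, adjusted p = 0.697).

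With SB431542 on the ACLP matrix, 23 of 34 members were still higher than on col1 (against 4.6% of all genes tested) and none was lower (4.54% of all genes). Only Insig1 was lower at an unadjusted p under 0.05 in that test, and DESeq2 and limma-voom also called no member lower. The other 11 did not pass, and only Idi1, Fdft1, Sqle and Cyp51 were beyond 0.58 (4 of 34, against 1.27% of all genes higher and 1.01% lower). In 25 members all 4 col1-ACLP+SB libraries lay above all 4 col1 libraries (6.7% of all genes), and in 1, Insig1, all lay below (6.32%). By branch, 13 of 19 sterol enzymes, 3 of 5 regulators with the carrier and 7 of 10 fatty acid enzymes were higher, with median log2 fold changes of 0.40, 0.25 and 0.27. The median over all genes tested was 0.0046. Without col1 replicate 2, 23 members were again higher.

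Sqle was 0.62 higher on col1-ACLP+SB than on col1 (standard error 0.0678, adjusted p = 3.12e-07), Idi1 0.63 (2.02e-05), Cyp51 0.61 (8.25e-06) and Fdft1 0.59 (1.03e-05), on the log2 scale. Srebf2 was 0.43 higher (adjusted p = 2.10e-05), Stard4 0.51 (3.80e-06) and Fads1 0.36 (3.01e-06). Members that were called on col1-ACLP but not here were Tm7sf2, Ebp, Dhcr7, Insig1, Acaca and Fasn. Their log2 fold changes against col1 were 0.26, 0.19, 0.32, -0.16, 0.15 and 0.19 in that order, with adjusted p-values of 0.336, 0.302, 0.0819, 0.103, 0.139 and 0.0521. Insig1 was thus nearly as low as on col1-ACLP (-0.19), and Fasn was called under 8 of 20 alternatives. Mvk passed narrowly (log2 fold change 0.34, adjusted p = 0.0485) and lost its call under 14 of 20 alternatives, and Mvd (0.40, adjusted p = 0.0333) under 6 of 20. Both comparisons with col1 share the same 4 control libraries.

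**Figure D3:**
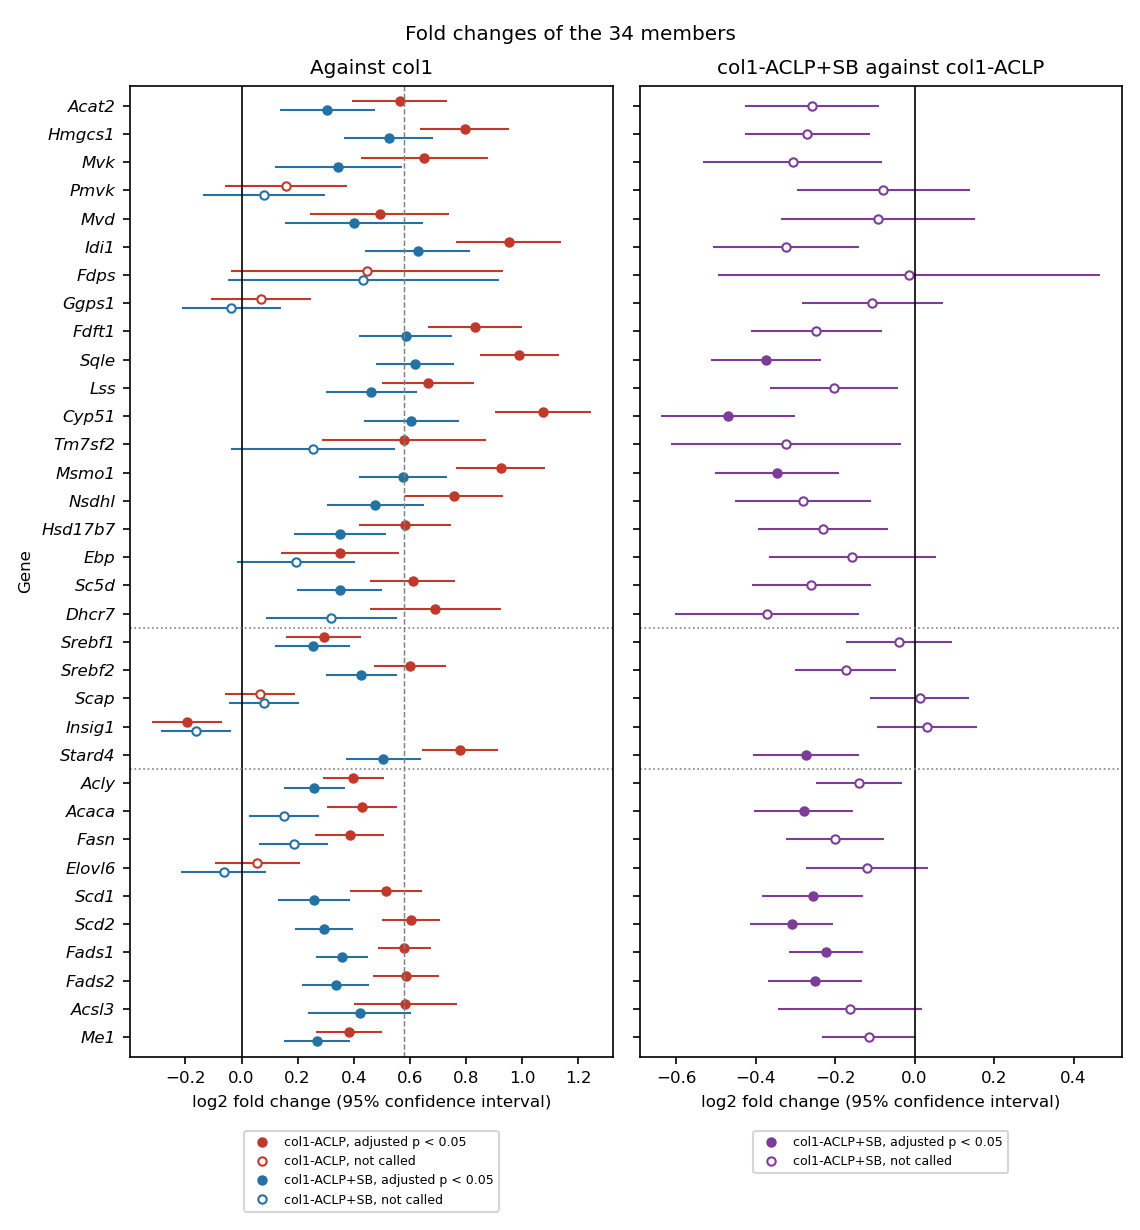
Log2 fold change with its 95% confidence interval for each of the 34 members (rows, in pathway order), against col1 on the left and for col1-ACLP+SB against col1-ACLP on the right. Filled points passed an adjusted p of 0.05, open points did not, and the dashed line on the left marks 0.58; on the right, 9 points are filled and all of those lie below 0.

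The direct comparison of col1-ACLP+SB with col1-ACLP put 9 of 34 members lower with SB431542, where 0.905% of all genes tested were lower. None was higher (0.571% of all genes), also by DESeq2, by limma-voom or at an unadjusted p under 0.05, and none of the 9 was beyond 0.58 (0.085% of all genes were higher and 0.0425% lower by that much). The count of lower members was 13 with DESeq2 (491 of all genes called in either direction, against 243), 10 with limma-voom (259), 19 with no filter on low counts (428), 7 with library size alone (266) and 7 with a replicate block (177). Estimates were below 0 for all but 2 members, Scap and Insig1, with a member median of -0.24 against 0.0048 over all genes. In 16 members all 4 col1-ACLP+SB libraries lay below all 4 col1-ACLP libraries (4.52% of all genes), and in none did they all lie above (3.65%).

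The sterol enzymes called lower with SB431542 were Cyp51 (log2 fold change -0.47, standard error 0.0812, adjusted p = 0.00302), Sqle (-0.37, standard error 0.0672, adjusted p = 0.00365) and Msmo1 (-0.35, standard error 0.0755, adjusted p = 0.0161). The carrier Stard4 was lower by -0.27 (adjusted p = 0.0296). Of the fatty acid enzymes, Scd2 (-0.31, adjusted p = 0.00160), Fads1 (-0.22, 0.00986), Acaca (-0.28, 0.0157), Fads2 (-0.25, 0.0234) and Scd1 (-0.26, 0.0344) were lower. The other 16 sterol enzymes had estimates from -0.37 to -0.01, with Hmgcs1 at -0.27 (adjusted p = 0.0752), Idi1 at -0.32 (0.0708) and Dhcr7 at -0.37 (0.105). Srebf2 had an estimate of -0.17 (95% confidence interval -0.30 to -0.05, adjusted p = 0.190) and Srebf1 of -0.04 (-0.17 to 0.09, adjusted p = 0.886).

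These calls rested in part on col1-ACLP replicate 4, which was the highest of its group for 25 of 34 members. Without it 3 members were lower (Sqle, Cyp51 and Scd2, against 0.387% of the genes then tested). Without col1-ACLP+SB replicate 4 there were 4 (0.446% of all genes), without replicate 2 of that group 5 (0.666%), and without its replicate 1 there were 6 (0.65%). Without col1 replicate 2 there were 10, among 274 genes then called in either direction against 243 with all libraries.

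The sterol branch was then set beside the fatty acid branch within each library, as a description with no test. The mean log2 level of the 19 sterol enzymes relative to col1 was 0.571 to 0.763 in the col1-ACLP libraries and 0.313 to 0.455 in the col1-ACLP+SB libraries. For the 10 fatty acid enzymes it was 0.387 to 0.572 and 0.213 to 0.277. The 5 regulators with the carrier lay at 0.256 to 0.422 and 0.194 to 0.254. In all 8 libraries with ACLP the sterol mean was above the fatty acid mean, by 0.191 ± 0.0359 without SB431542 and 0.148 ± 0.0780 with it (SD, n = 4), against -0.0254 to 0.0461 in the col1 libraries. In the contrast of col1-ACLP with col1, the median log2 fold change was 0.65 for sterol enzymes (16 of 19 higher, 12 beyond 0.58), 0.47 for fatty acid enzymes (9 of 10 higher, 4 beyond) and 0.29 for regulators with the carrier (3 of 5 higher, 1 lower, 2 beyond). Between the groups with and without SB431542, 5 of 10 fatty acid enzymes and 3 of 19 sterol enzymes were called lower, with medians of -0.21 and -0.26. Both counts depended on the settings. With a library left out, 1 to 5 fatty acid enzymes and 2 to 4 sterol enzymes were lower, and without col1-ACLP replicate 4 these were 1 (Scd2) and 2 (Sqle and Cyp51). Under the other alternatives the counts ran from 0 to 6 and from 0 to 11. The median standard error was 0.0585 for fatty acid enzymes and 0.0834 for sterol enzymes, whose median col1 level was 29.9 CPM against 139 CPM, so a change of a given size was less readily called in the sterol branch.

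**Figure D4:**
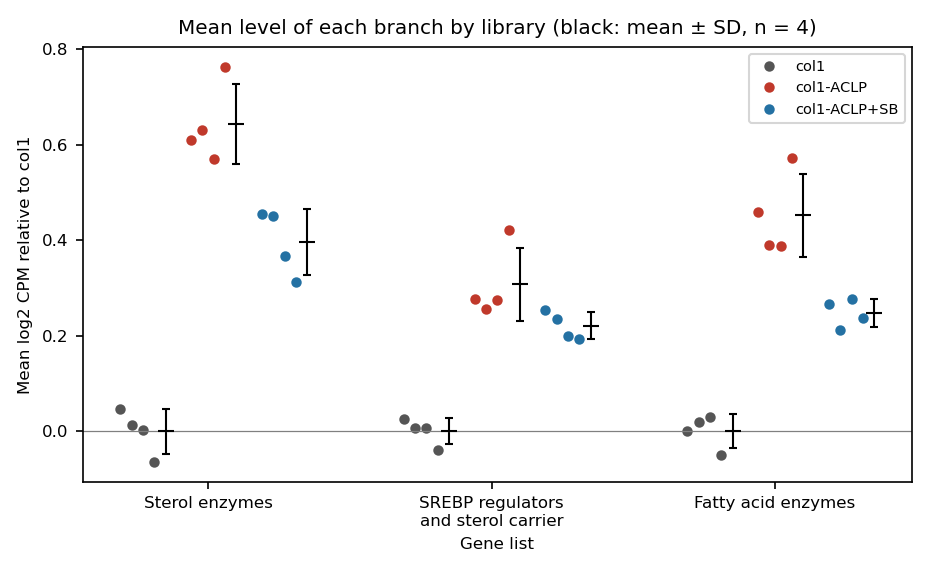
Mean over the genes of each list of log2 CPM relative to col1 (y axis), with 1 coloured point per library and a black mark and bar for the mean and SD of 4 libraries per group. In each list the col1-ACLP points lie above the col1-ACLP+SB points and both above the col1 points, and the sterol enzymes reach the highest values, up to 0.763 in col1-ACLP replicate 4.

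The members alone ordered the libraries by group. In a principal component analysis of their log2 CPM, the leading component held 84.3% of the variance and placed col1 between -2.32 and -1.69, col1-ACLP+SB between -0.0306 and 0.539, and col1-ACLP between 1.24 and 2.35. On this measure col1 replicate 2 (-1.74) lay within its group, and col1-ACLP replicate 4 was the most extreme of its own. Most of the members were called between these groups, and the list was chosen with earlier results of these data known. The order is thus a description and adds no separate support.

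Other genes of sterol handling did not move as a block. Of 18 genes of sterol transport and oxysterol response, 15 were tested. On col1-ACLP 2 of these were higher (against 9.52% of all genes tested) and 3 lower (against 8.41%). Vldlr, a lipoprotein receptor, rose from 47.9 ± 2.59 to 97.2 ± 5.87 CPM (SD, n = 4; log2 fold change 1.02, adjusted p = 1.98e-12). Tmem97, a sterol-responsive membrane protein, rose from 9.90 ± 2.58 to 19.6 ± 1.73 CPM (0.99, adjusted p = 6.92e-06). Insig2, the paralog of Insig1, fell from 124 ± 8.02 to 73.8 ± 6.39 CPM (-0.75, adjusted p = 1.78e-08), and the cholesterol exporter Abca1, a target of the oxysterol receptor LXR, fell from 22.6 ± 2.56 to 15.1 ± 1.33 CPM (-0.58, adjusted p = 0.000959). Mylip, also an LXR target and named after its value was seen, was lower by -0.39 (adjusted p = 0.000224). Mbtps1 and Mbtps2, the proteases that release SREBP and are named here for that role, had log2 fold changes of 0.10 and 0.01 and did not pass. Of 11 genes that use isoprenoids, 2 were higher on col1-ACLP (against 9.52% of all genes), among them the farnesyltransferase subunit gene Fntb at 0.36.

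Of 16 genes that feed fatty acid synthesis or lengthen its products, 14 were tested. On col1-ACLP 8 were higher (against 9.52% of all genes), by at most 0.52, and 6 did not pass. The leading ones were Aacs, an acetoacetyl-CoA synthetase, at 0.52 (adjusted p = 7.22e-06), Fads3 at 0.45 (2.42e-07), Hsd17b12, an enzyme of fatty acid elongation, at 0.42 (5.68e-05) and Idh1, a cytosolic source of NADPH, at 0.40 (4.02e-06). Of 11 acyl-CoA ligases and glycerolipid enzymes, Acsl4 (0.30) and Gpat4 (0.21) were higher (against 9.52% of all genes) and Agpat2 (-0.38) was lower (against 8.41%). Of the genes of fatty acid oxidation, 4 of 10 were lower on col1-ACLP, against 8.41% of all genes. Among them were Acaa2 (-0.58, adjusted p = 1.82e-08), Acadm (-0.54, 7.73e-07) and Cpt1a, the carnitine palmitoyltransferase that admits fatty acids to mitochondria (-0.53, 1.41e-07). All 4 were lower on col1-ACLP+SB as well (against 4.54% of all genes).

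Other gene groups also differed between the matrices. Of 14 proliferation genes, 11 were higher on col1-ACLP (against 9.52% of all genes). The summed level of the 14 was 244 to 273 CPM in the col1 libraries, 358 to 392.2 CPM on col1-ACLP and 314 to 338 CPM on col1-ACLP+SB, the same order as the members. The leading ones were Aurkb (log2 fold change 1.01), Bub1 (0.82), Ccna2 (0.76) and Top2a (0.72). Of the 8 mesenchymal markers 3 were higher on col1-ACLP (Col1a1 at 0.82, Col1a2 at 0.65 and Fn1 at 0.30), against 9.52% of all genes. A further 2 were lower (S100a4 at -0.50 and Pdgfrb at -0.15), against 8.41%, and 3 did not pass. The 8 markers had a median of 0.06. Together they summed to 49580 to 52620, 62590 to 76080 and 58210 to 64740 CPM in the same groups. The 7 adipocyte markers summed to 40.25 to 44.5, 28.4 to 30.7 and 26.1 to 32.0 CPM, with 3 of 7 tested and Pparg lower on col1-ACLP (-0.63). Sums of 5 macrophage markers (10.0 to 11.2, 6.17 to 10.2 and 7.64 to 12.8 CPM, Adgre1 at 0 in all libraries) and of 4 endothelial markers (5.06 to 8.30, 7.52 to 9.85 and 4.30 to 6.41 CPM) were low. Of these, Cd68 was lower on col1-ACLP than on col1 (-0.49, adjusted p = 0.0284), and Tek was lower on col1-ACLP+SB than on col1-ACLP (-0.86, adjusted p = 0.0116). Of the hepatocyte markers, Alb, Ttr and Serpina1a were at 0 in all libraries. The part of these groups in the results on the members was not tested.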

How the data were processed

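The deposited table of the authors holds unnormalized gene counts of 12 libraries. Per the paper's methods, paired-end reads were mapped with HISAT2 to GRCm39, while the labels name mm10 and poly(A) enrichment. The gene coordinates of all 34 members lie on the same chromosome and strand, with overlapping spans, in GENCODE vM39 on GRCm39, which is the build used here. The counting tool, its strand setting and its treatment of reads that map to several places are not given in the sources used here. All columns of counts were used. The test was edgeR 4.0.16 in R 4.3.3 (filterByExpr, TMM, glmQLFit and glmQLFTest on all 12 libraries with group as the only term) with p-values adjusted over 16465 genes by the Benjamini-Hochberg method. CPM use TMM-scaled library sizes and FPKM the gene lengths of the table. Log2 CPM for branch means and principal components used a prior count of 2. The difference between replicates over all genes had a square root of the common dispersion of 0.153. Counting error, the only error the counts themselves give, was not set beside it gene by gene. It weighs most for Fdps, with a lowest count of 80. Replicates differed beyond sampling noise in every pair (chi-square per degree of freedom 7.49 to 19.7), and each library was treated as 1 sample. Such a difference does not show whether the libraries were separate cultures. The procedure was tested on simulated counts, where it called most of the changed genes at 10 CPM or more and few of those under 10 CPM, the range of Fdps. The division at 10 CPM was made after a recovery target over all levels had been missed. The planted log2 changes were 0.58 or 1 in size and were shared by both groups with ACLP. Recovery of smaller changes, or of changes between the groups with and without SB431542, was not tested. Alternatives changed size factors (edgeR RLE, library size alone), the filter (none, a mean of at least 10 counts), the libraries fitted, the addition of a replicate block, the test (limma-voom 3.58.1 or DESeq2 1.42.0), the size of change required, and each library left out in turn. All 34 members are named, with at most 4 genes of largest change among those called on col1-ACLP per other list. Mylip, Pdgfrb and Tek were added after their values were seen. Some genes that this rule names are counted in their lists but not reported here by name. The members and lists were chosen with earlier results of these data known.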

Additional observations from a re-analysis of the deposited data

Results flagged for a closer look

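In 5 of 102 sets of 4 libraries (34 members in 3 groups), 1 library lay far from the other 3 relative to the range of its group. Chance gives such a gap in about 1 in 20 sets, and 5 of 102 is close to that rate. Idi1 stood at 25.1 CPM in col1 replicate 2, against 20.4 to 20.9 CPM in the other col1 libraries, and Acly at 207 CPM in the same library, against about 225 CPM in each of the others. In col1-ACLP+SB, Acat2 was low in replicate 1 (45.3 CPM, against 48.5 to 49.2), Elovl6 in replicate 2 (38.5 CPM, against 44.3 to 44.9) and Fdft1 in replicate 4 (70.2 CPM, against 79.9 to 80.8). The called members among these kept their direction without that library.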

How the results depend on the processing

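Against col1, the 28 higher members on col1-ACLP numbered 27 or 28 under every alternative that kept the threshold on the adjusted p alone, and every median of a list kept its sign. On col1-ACLP+SB between 20 and 25 members were higher. Over all genes, 2467 to 3290 were called in either direction on col1-ACLP and 1203 to 1803 on col1-ACLP+SB under these alternatives. Asking also for a log2 fold change beyond 0.58 left 4 fatty acid enzymes on col1-ACLP, and 4 sterol enzymes, 0 regulators and 0 fatty acid enzymes on col1-ACLP+SB. On col1-ACLP the estimates of those 4 fatty acid enzymes fell below 0.58 in some alternative other than leaving a library out. So did those of Srebf2 (0.549 at the lowest), Hsd17b7 (0.531) and Sc5d (0.559). The comparison of col1-ACLP+SB with col1-ACLP depended most on the settings. Sterol enzymes called lower numbered 3 as reported, 11 with no filter on low counts, 6 with DESeq2 and 0 beyond 0.58. For the regulators with the carrier the 1 called lower (Stard4) became 0 with library size alone, 2 with no filter and 0 beyond 0.58, and ranged from 0 to 1 with a library left out. Fatty acid enzymes called lower were 0 beyond 0.58 and ranged from 1 to 5 with a library left out. Over all members 7 to 19 were lower in the settings that kept all libraries and the adjusted p alone, and 3 to 10 with a library left out. Over all genes, 243 were called in this comparison, against 428 with no filter, 491 with DESeq2 and 98 to 282 with a library left out. The cause was not tested.

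Directions that turned were all of uncalled values. The median of the regulators in that comparison was 0.0028 without col1-ACLP replicate 4 (-0.0658 to 0.0028 with a library left out). With a library left out, Pmvk ranged from -0.0212 to 0.137 and Ggps1 from -0.106 to 0.0305 in col1-ACLP+SB against col1. Against col1-ACLP, Fdps was 0.0107 with library size alone and ranged from -0.126 to 0.117 with a library left out (0.0214 and 0.0666 among them), Srebf1 reached 0.0124 without col1-ACLP replicate 4, Scap ranged from -0.0221 to 0.0444 and Insig1 from -0.0023 to 0.0679. Between libraries with the same replicate number, deviations from the group mean over all genes tested correlated at -0.0372 to 0.036. Libraries with unlike numbers were not compared in this way, so these values cannot tell whether the numbers pair libraries. A replicate block gave 28 higher and 1 lower member on col1-ACLP, 21 higher on col1-ACLP+SB, and 7 lower between the groups with ACLP, with 0 regulators lower.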
